A study of Mus musculus with 24 samples.

Results

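The genes described here are 10 genes of leukocyte maturation, namely Ccr7, Fscn1, Samsn1, Mreg, Ccl17, Ccl22, Cd40, Cd80, Cd83 and Cd86. They were taken by symbol from 54658 gene symbols counted in each library. The set was chosen by the measured peritoneal values of Ccr7, Fscn1 and Samsn1, which were much lower in β-NMN-treated mice, with no numeric threshold. The peritoneal comparison therefore chose the members, and their peritoneal values are given as a description without a test. Hearts and lungs were not used in that choice and were tested.

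β-NMN, or β-nicotinamide mononucleotide, is a biosynthetic precursor of NAD+. All animals were male C57BL/6 mice of 7 to 12 weeks, and β-NMN at 185 mg/kg/day was compared with a saline vehicle, the last injection being given 24 h before sacrifice. In the TGC model, mice received 1 mL of 4% Brewer thioglycollate medium into the peritoneum, and on the third day the unsorted cells of the peritoneal lavage were plated and incubated for 6 h with E. coli, which all 12 libraries (6 vehicle and 6 β-NMN mice) had received. In the CLP model, sepsis was provoked by cecal ligation and puncture, and the heart and the lung of 3 vehicle and 3 β-NMN mice were collected on the day after surgery. Each group thus combines one treatment with one injury, and an untreated or unstimulated group was not analysed here. β-NMN and saline were injected into the peritoneum in both models, but the dosing differed. TGC mice had daily doses for 3 days, the first given together with the thioglycollate. The CLP mice had only the dose given right after surgery.

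Dendritic cells and some macrophages change state once they sense bacteria. They switch on the receptor CCR7, which follows CCL19 and CCL21 towards lymph nodes, bundle actin into long protrusions with fascin (Fscn1), release the CCR4 ligands CCL17 and CCL22 that draw T cells, and raise the costimulatory proteins CD80, CD86, CD40 and CD83. Samsn1 encodes an adaptor with SH3 and SAM domains that restrains lymphocyte signaling, and Mreg encodes melanoregulin, a protein of lysosome-related organelles. Both are commonly listed among the genes of mature dendritic cells.

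The count totals were 31126823 to 112456050 in peritoneal cells, 27319513 to 68523239 in hearts and 8915366 to 28356786 in lungs. Values are in CPM, a gene's read count divided by the count total of its library in M, scaled by TMM to correct for differences in library composition, and fold changes are β-NMN over vehicle. Vehicle mouse 2 of the CLP model stood apart in both organs. The log2 difference of its libraries from the mean of the other vehicle libraries had an SD over genes of 0.90 in the heart and 1.62 in the lung, against 0.44 to 0.61 and 0.47 to 0.92 for the others. Marker genes followed the tissue labels. Macrophage markers were led by Lyz2 in peritoneal cells, the 6 heart muscle markers summed to at least 30476 CPM in every heart, and the 6 lung epithelial markers to at least 58367 CPM in every lung.

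On GRCm38, GENCODE M21 places Ccr7 on chromosome 11 (99144196 to 99155077), Fscn1 on chromosome 5 (142960343 to 142973185), Mreg on chromosome 1 (72159442 to 72212307) and Cd83 on chromosome 13 (43784775 to 43803132). Cd40 lies on chromosome 2 (165055627 to 165072948). Chromosome 16 holds Samsn1 (75858793 to 76022281), Cd80 (38455561 to 38496335) and Cd86 (36603869 to 36666081). Ccl22 (94745590 to 94751699) and Ccl17 (94810453 to 94812036) are neighbours on chromosome 8, separated by 58753 bases. Each of the 10 is protein coding, and the single overlapping gene, Gm15555 within the span of Samsn1, shares no exon bases with it.

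RefSeq promoter windows (GRCm38.p6) were found for 6 of the 10 members, and the 5 shown here belong to members that were lower with β-NMN in peritoneal cells. Each is printed 5′ to 3′ on the strand of the gene, from at most 250 bases before the start and ending before the first annotated exon base. Capitals mark matches to GGGA followed by any 4 bases and CC (κB-like), TGANTCA (AP-1-like) or GAGGAAGT (PU.1-like), searched on both strands, and these matches did not overlap each other.
Fscn1 (chr5:142960105-142960342, plus strand): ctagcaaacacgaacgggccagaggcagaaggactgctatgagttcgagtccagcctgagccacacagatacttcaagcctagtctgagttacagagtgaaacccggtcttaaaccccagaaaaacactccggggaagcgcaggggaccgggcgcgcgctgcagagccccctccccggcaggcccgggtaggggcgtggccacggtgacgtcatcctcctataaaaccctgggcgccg
Samsn1 (chr16:75909311-75909516, minus strand): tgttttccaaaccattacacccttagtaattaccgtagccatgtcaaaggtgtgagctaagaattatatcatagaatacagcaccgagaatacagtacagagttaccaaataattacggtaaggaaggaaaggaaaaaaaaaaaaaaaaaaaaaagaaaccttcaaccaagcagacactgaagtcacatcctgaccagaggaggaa
Mreg (chr1:72212308-72212557, minus strand): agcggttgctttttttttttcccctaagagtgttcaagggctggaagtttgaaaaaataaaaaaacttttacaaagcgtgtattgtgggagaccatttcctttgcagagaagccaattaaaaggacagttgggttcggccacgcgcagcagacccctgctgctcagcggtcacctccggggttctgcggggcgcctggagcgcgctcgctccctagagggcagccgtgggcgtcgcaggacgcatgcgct
Ccl22 (chr8:94745434-94745589, plus strand): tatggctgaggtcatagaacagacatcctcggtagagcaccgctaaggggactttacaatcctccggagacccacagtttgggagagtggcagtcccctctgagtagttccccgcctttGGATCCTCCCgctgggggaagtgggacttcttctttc
Cd80 (chr16:38458683-38458932, plus strand): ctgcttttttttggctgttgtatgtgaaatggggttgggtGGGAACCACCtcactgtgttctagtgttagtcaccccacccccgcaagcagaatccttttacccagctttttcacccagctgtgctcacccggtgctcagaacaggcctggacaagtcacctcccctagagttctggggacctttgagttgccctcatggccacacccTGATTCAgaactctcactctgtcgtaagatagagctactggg

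The Ccl22 window held 1 κB-like match, on the minus strand 131 bases before the start. The Cd80 window held 1 κB-like match 210 bases and 1 AP-1-like match 42 bases before the start. Samsn1 had 2 PU.1-like matches, 50 and 30 bases before the start, which lie in or next to annotated exon bases and are not printed. The windows of Fscn1, Mreg and Ccl17 held none of the 3 motifs, which says only that these letters are not there. Of all 32851 promoter windows, 17.63% held a κB-like, 6.75% an AP-1-like and 2.44% a PU.1-like match. The windows of Samsn1 and Cd80 lie inside the longer GENCODE gene and those of the other members shown lie before it.

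In stimulated peritoneal cells, the migratory genes were about 5-fold lower with β-NMN, Samsn1 and Mreg lower still, Cd80 about 3-fold lower and Ccl22 less so, whereas the ranges of Cd40, Cd83 and Cd86 overlapped between the groups. Ccr7, the lymph node homing receptor, ranged from 130 to 158 CPM in vehicle mice (median 153) and from 22.6 to 36.7 CPM in β-NMN mice (median 26.7). The groups were far apart, and every β-NMN mouse was below every vehicle mouse. The means were 148 ± 11.4 and 27.8 ± 4.95 CPM (SD, n = 6 each), a log2 fold change of -2.41 (SE 0.11). Fscn1, whose product bundles actin, ranged from 67.7 to 108 CPM in vehicle mice (median 73.5) and from 12.5 to 16.5 CPM in β-NMN mice (median 14.3). One vehicle mouse lay above the other 5, and no values were shared between the groups. Its log2 fold change was -2.44 (SE 0.12). The number of Fscn1 reads per 100 reads of Ccr7 was 42.8 to 69.7 in vehicle and 43.8 to 60.2 in β-NMN mice, so these ranges overlapped.

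Samsn1, the adaptor gene, was the most abundant of the lower members by CPM, with 187 to 286 CPM in vehicle mice (median 274) against 31.5 to 47.8 CPM in β-NMN mice (median 36.8). Its log2 fold change was -2.76 (SE 0.13), or 6.76-fold lower. Mreg, the melanoregulin gene, had the largest difference of the 10, from 102 to 170 CPM in vehicle mice (median 152) to 17.4 to 22.3 CPM (median 20.04). It was 7.36-fold lower, with a log2 fold change of -2.88 (SE 0.13). For each 100 reads of Ccr7 there were 67.5 to 122 reads of Mreg in vehicle mice and 60.8 to 96.9 in β-NMN mice, with overlapping ranges.

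The 2 chemokine genes differed from each other in level. Ccl22 had 30.001 to 56.8 CPM in vehicle mice (median 31.3) and 13.0 to 23.2 CPM in β-NMN mice (median 22.4). Vehicle mice 4 and 6 were the high ones, and the lowest vehicle mouse still lay above the highest β-NMN mouse. The log2 fold change was -0.89 (SE 0.19). Ccl17, its neighbour on chromosome 8, was barely detected, with 2 to 12 reads per vehicle library and 0 to 16 per β-NMN library, and was not fitted.

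**Figure D1:**
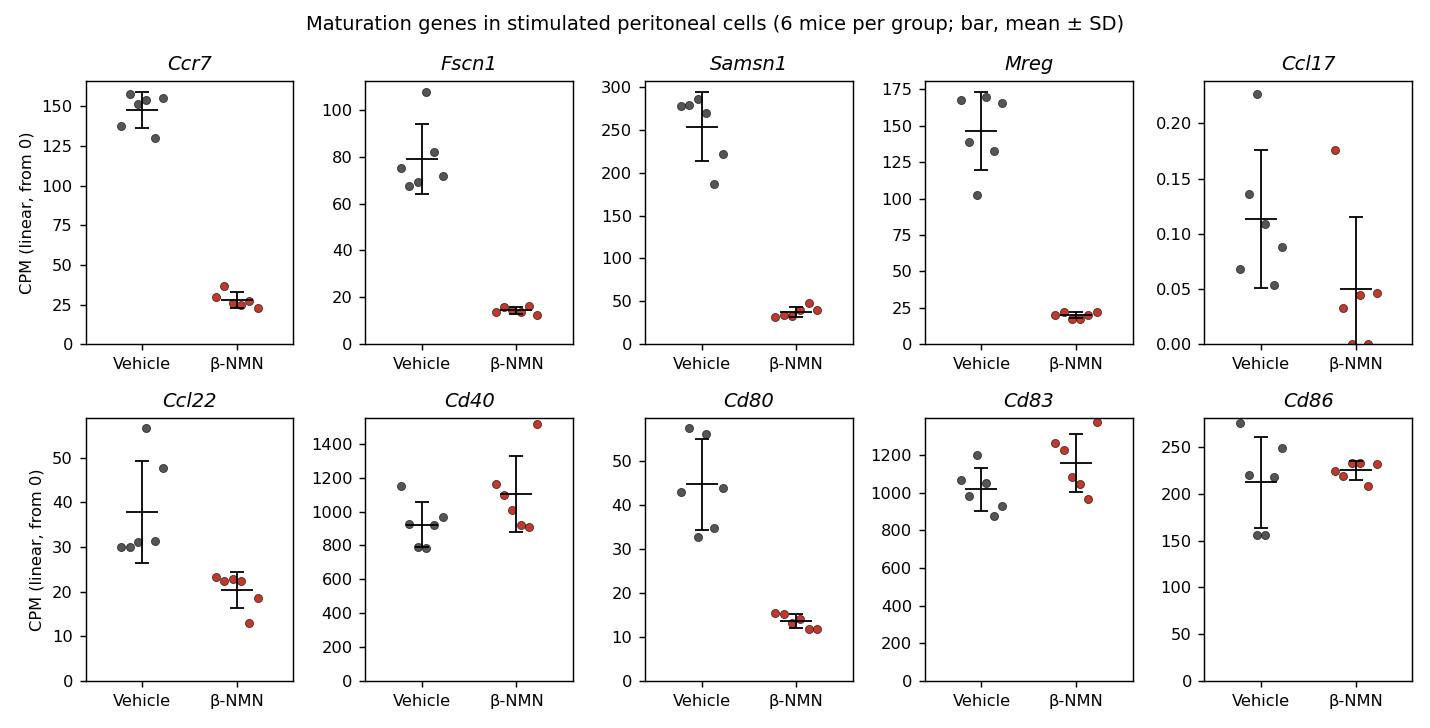
CPM (linear axis from 0) of the 10 maturation genes in stimulated peritoneal cells of 6 vehicle (grey) and 6 β-NMN (red) mice, each point 1 mouse and the bars the mean ± SD. The groups are separate for Ccr7, Fscn1, Samsn1, Mreg, Ccl22 and Cd80 and overlap for Cd40, Cd83, Cd86 and the barely detected Ccl17.

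The costimulatory genes split. Cd80, one of the ligands of CD28 and CTLA4, ranged from 32.8 to 57.6 CPM in vehicle mice (median 43.4) and from 11.7 to 15.5 CPM in β-NMN mice (median 13.6), a log2 fold change of -1.72 (SE 0.14). Cd86, the other ligand of the same receptors, ranged from 156 to 275 CPM (median 219) and from 209 to 233 CPM (median 228). The β-NMN mice lay within the vehicle range, and the fitted difference was 0.08 on the log2 scale (95% interval -0.19 to 0.36). Leaving out 1 library gave 0.0447 (without vehicle mouse 4) to 0.20 (without vehicle mouse 1) for Cd86. Within each library, 100 reads of Cd86 came with 15.6 to 36.04 reads of Cd80 in vehicle mice and with 5.06 to 6.93 in β-NMN mice. This ratio does not depend on how libraries are scaled to each other.

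Cd40, the receptor of T-cell CD40 ligand, had 785 to 1150 CPM in vehicle mice (median 922) and 908 to 1517 CPM in β-NMN mice (median 1055). Its difference was 0.26 on the log2 scale (95% interval -0.03 to 0.54). Cd83, a surface protein that stabilizes MHC class II and CD86, had 876 to 1200 CPM (median 1018) and 966 to 1374 CPM (median 1155), a difference of 0.19 (95% interval -0.04 to 0.42). For both, the β-NMN mice shared most of the vehicle range. Over the alternatives the estimates ran from 0.18 to 0.36 for Cd40 and from 0.14 to 0.28 for Cd83. For each 100 reads of Cd83 there were 12.6 to 16.7 reads of Ccr7 in vehicle mice and 1.65 to 2.99 in β-NMN mice.

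In this comparison 7733 of 14985 genes (51.6%) passed an adjusted p of 0.05 in edgeR's quasi-likelihood test, 27.9% lower and 23.7% higher. The groups did not overlap at 26.6% of genes, 14.0% in the lower and 12.6% in the higher direction, and 13.9% had a log2 fold change below -1. Of the 9 members that passed the low-count filter, 6 were lower without overlap, but nothing is read from that count since this contrast chose them. With a term for libraries with high or low count totals, a grouping made after the totals were seen, the 6 log2 fold changes were between -2.85 and -0.80. In cells that were not sorted, fewer cells of a type and less RNA per cell cannot be told apart.

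Levels between genes were compared per kilobase of exon. In vehicle peritoneal cells Cd83 (median 396 CPM per kb) was highest and Cd40 (271) next, and neither overlapped its neighbour in the order. Ccr7 (77.3), Mreg (66.7), Cd86 (59.8) and Samsn1 (55.5) followed, each overlapping the next. Fscn1 (24.4), Ccl22 (13.4) and Cd80 (11.7) formed a lower run of overlapping ranges, and Ccl17 (0.19) was last. In β-NMN mice Cd83 (449) and Cd40 (310) led with overlapping ranges, Cd86 (62.2) came next, and Ccr7 (13.5) came after it, each without overlap with the gene after it.

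**Figure D2:**
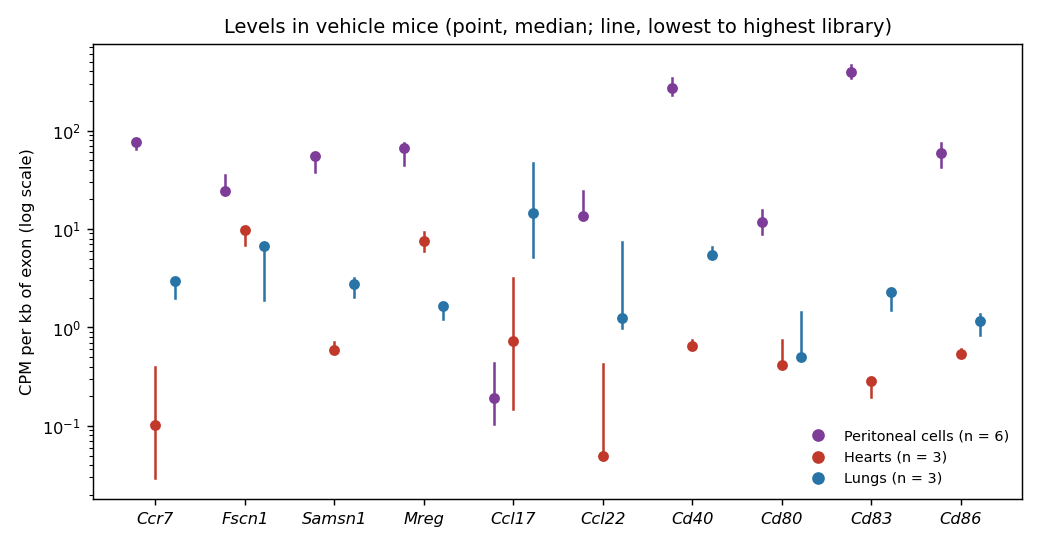
CPM per kb of exon (log axis) of each maturation gene in vehicle mice, with the median as a point and a line from the lowest to the highest library, for 6 peritoneal, 3 heart and 3 lung libraries. Peritoneal and organ libraries come from separately scaled tables and their levels were not tested against each other, but all members except Ccl17 have their highest median in peritoneal cells.

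Between mice of the same group, Ccr7 had an SD of 0.11 in vehicle and 0.24 in β-NMN mice on the log2 scale, well below its difference between groups. For Cd40 (0.20 and 0.27), Cd83 (0.16 and 0.19) and Cd86 (0.34 and 0.06) the SD was about as large as, or larger than, the difference in at least one group. For Ccl22 it was 0.40 and 0.33. Correlations of Ccr7 with the 9 other members over the 6 vehicle mice ran from a Pearson r of -0.42 to 0.68, and 0 of 9 passed (smallest adjusted exact two-sided permutation p 0.654). Over the 6 β-NMN mice r ran from -0.50 to 0.70, with a smallest adjusted exact permutation p of 0.663. For Cd80, r was 0.58 in vehicle mice (exact permutation p 0.196, Spearman's rank correlation 0.77 with p 0.103) and 0.80 without the 2 mice farthest from the median of Ccr7. In β-NMN mice it was 0.66 (exact permutation p 0.147, rank correlation 0.71 with p 0.136) and 0.27 without the 2 farthest. For Fscn1, r was -0.10 in vehicle mice (exact permutation p 0.888) and 0.70 in β-NMN mice (exact permutation p 0.107), falling to 0.21 without the 2 farthest.

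After the group means were removed, the genes most like Ccr7 over the 12 peritoneal libraries, among 9637 genes whose log2 CPM averaged 1 or more, were Lbh (r 0.91), Rgs19 (0.90), St6gal1 (0.89), Nr4a1 (0.87) and Nop10 (0.87). The 12 points are libraries of one table scaled together, and the values describe likeness only. Nr4a1, an orphan nuclear receptor gene of the immediate early response, had 388 ± 72.2 CPM in vehicle and 69.7 ± 19.2 CPM in β-NMN mice (SD, n = 6 each), a log2 fold change of -2.48 (edgeR adjusted p 1.02e-07). Lbh changed less, by -0.51 (edgeR adjusted p 0.00789). Rgs19, a regulator of G protein signaling, St6gal1, a sialyltransferase, and Nop10, a small nucleolar ribonucleoprotein, had log2 fold changes of -0.06, -0.22 and -0.09 with adjusted p of 0.679, 0.228 and 0.494. Among the members, Cd80 was nearest to Ccr7 by this measure (r 0.49, place 708), and Fscn1 was at place 2143 (r 0.29).

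The other genes of the same biology were read from 5 lists of 84 genes, of which 79 were tested in peritoneal cells. The lists were chosen with earlier results of these data known, so their counts, medians and p-values describe this contrast and are no independent support. In all, 60 of them passed an edgeR adjusted p of 0.05, 44 lower and 16 higher, against 27.9% and 23.7% of all genes. Of 28 other genes of mature dendritic cells, 16 were lower and 8 higher, with a median log2 fold change of -1.06 against -0.02 over all genes. Tbc1d4, a Rab GTPase activating protein, was at 15.1 ± 2.84 CPM in vehicle and 2.62 ± 0.24 in β-NMN mice (SD, n = 6 each), a log2 fold change of -2.52 (adjusted p 6.60e-09). Cacnb3, a calcium channel subunit, followed at -1.92 (adjusted p 2.24e-08), and Adcy6, an adenylyl cyclase, at -2.27 (adjusted p 2.68e-07). In the other direction, Cd200, the ligand of an inhibitory myeloid receptor, rose from 529 ± 67.0 to 1032 ± 78.2 CPM, a log2 fold change of 0.96 (adjusted p 1.71e-06). Nudt17 (0.94, adjusted p 5.99e-06) and Anxa3, an annexin (0.79, adjusted p 4.64e-05), rose as well.

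Among 12 tested costimulatory and inhibitory ligands, 6 were lower and 3 higher, against 27.9% and 23.7% of all genes, with a median of -0.37. Slamf1, a self-ligand of lymphocytes and myeloid cells, fell from 173 ± 23.1 to 49.0 ± 8.59 CPM, a log2 fold change of -1.82 (edgeR adjusted p 4.88e-08). Icosl, the ICOS ligand (-1.40, adjusted p 4.71e-06), and Cd24a (-1.23, adjusted p 5.13e-06) fell too. Cd48, the ligand of CD244, rose by 0.85 (adjusted p 8.54e-06), Cd276 by 0.71 (adjusted p 0.00386) and Tnfsf4, the OX40 ligand, by 0.64 (adjusted p 0.0220).

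Of 14 genes of CD40 and noncanonical NF-κB signaling, 11 were lower and 0 higher, with a median of -0.71. Among all genes, 27.9% were lower and 23.7% higher. The smallest p belonged to Map3k14, the NF-κB-inducing kinase (-1.41, edgeR adjusted p 1.30e-06), Traf1, an adaptor of the CD40 complex (-1.38, adjusted p 1.44e-06), and Bcl2l1, the survival gene Bcl-xL (-1.37, adjusted p 4.93e-07). Traf1 itself stood at 943 ± 78.0 CPM in vehicle and 362 ± 89.7 in β-NMN mice. Cd40, the receptor upstream of these genes, had overlapping groups, as given above.

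Among 21 genes of actin and cell migration, 7 were lower, 5 higher and 9 did not pass, near the 27.9% lower and 23.7% higher among all genes, with a median of 0.00. Rac2, a GTPase of blood cells (-0.89, edgeR adjusted p 1.54e-06), Lcp1, the leukocyte actin bundler L-plastin (-0.77, adjusted p 1.90e-05), and Coro1a, a coronin (-0.95, adjusted p 4.81e-05), fell. Arpc5 of the Arp2/3 complex (0.46, adjusted p 0.000178), Evl (0.85, adjusted p 0.000249) and Pls3, another actin bundler (0.81, adjusted p 0.000381), rose. 

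Of 8 ligands and receptors of the members, 4 passed the filter and all 4 of these were lower, as were 27.9% of all genes. Cd40lg (-2.57, edgeR adjusted p 0.000605), Cd28 (-1.21, adjusted p 0.00411), Ccr4 (-1.02, adjusted p 0.0358) and Ctla4 (-0.78, adjusted p 0.0470) are genes of T cells, and their vehicle means were 0.50, 2.07, 0.52 and 8.27 CPM. The 8 T-cell markers summed to 28.7 to 63.2 CPM in vehicle and 42.8 to 60.9 CPM in β-NMN mice. Most of that sum was Lck, at 19.5 to 41.1 and 37.9 to 56.0 CPM. Of the 8, only 2 in vehicle and 1 in β-NMN mice reached 1 CPM in every library. Ccl19 and Ccl21a, the ligands of CCR7, were at or near 0 in these cells.

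**Figure D3:**
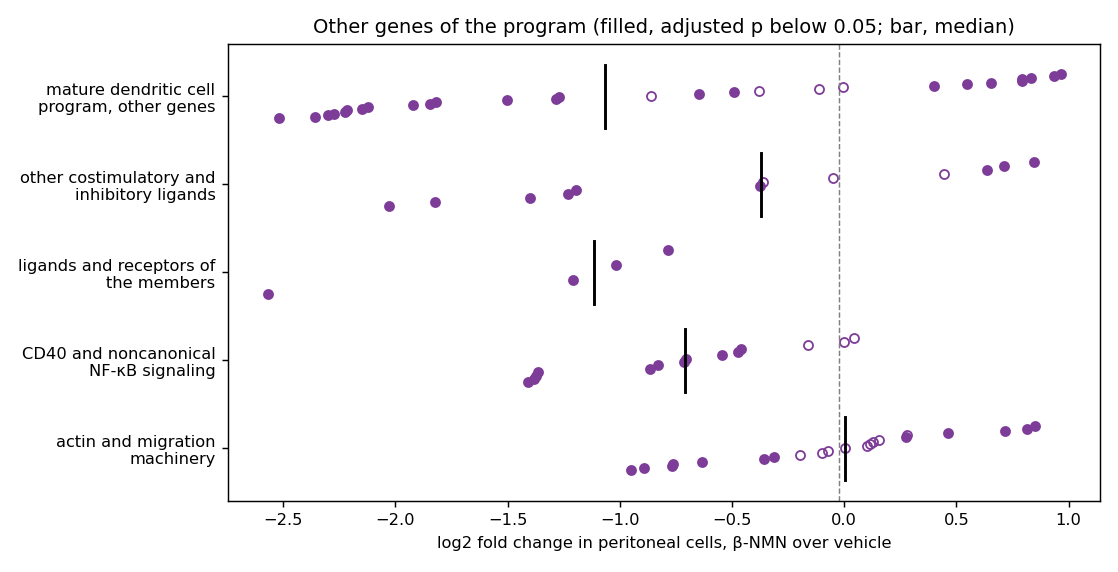
Log2 fold change (β-NMN over vehicle, peritoneal cells) of each tested gene of the 5 lists, filled where the edgeR adjusted p was below 0.05, with a bar at the list's median and a dashed line at the median of all genes; the height of points within a row only separates them. The CD40 and noncanonical NF-κB list has 11 lower and 0 higher genes, where 27.9% of all genes were lower and 23.7% higher. The actin list lies on both sides with a median of 0.00. All lists were chosen with earlier results of these data known.

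Sums of cell type markers in peritoneal cells differed between the groups for some cell types and overlapped for others. The 7 macrophage markers summed to 5515 to 8420 CPM in vehicle and 10419 to 11971 CPM in β-NMN mice. The 10 conventional dendritic cell markers summed to 467 to 740 and 281 to 412 CPM, but most of that sum was Sirpa, which macrophages express too. Of these 10, 4 were lower, 3 higher and 3 did not pass in edgeR's test, where 27.9% of all genes were lower and 23.7% higher. Zbtb46, a transcription factor of dendritic cells, fell from 27.8 ± 7.29 to 7.85 ± 0.54 CPM (log2 fold change -1.83, adjusted p 3.43e-07) and Flt3, a dendritic cell growth factor receptor, from 5.54 ± 1.21 to 2.37 ± 0.39 CPM. Batf3, by contrast, rose from 5.93 ± 2.50 to 19.1 ± 3.98 CPM (log2 fold change 1.69, adjusted p 9.36e-05), and Clec9a was near detection at 0.34 ± 0.18 and 0.33 ± 0.17 CPM.

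Neutrophil markers summed to 523 to 1042 CPM in vehicle and 360 to 480 CPM in β-NMN mice. B-cell markers summed to 53.1 to 223 and 31.9 to 108 CPM, resident macrophage markers to 44.7 to 52.9 and 46.8 to 132 CPM, and eosinophil and mast cell markers to 32.3 to 98.5 and 39.3 to 116 CPM. Endothelial markers gave 63.2 to 143 and 64.9 to 116 CPM. Their part in the differences of the maturation genes was not tested.

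In hearts of septic mice, Samsn1 had the smallest p of the members, Fscn1 had overlapping groups and Ccr7 was barely detected. Samsn1 had 2.84, 2.90 and 3.55 CPM in vehicle mice 1 to 3 and 1.38, 1.07 and 1.83 CPM in β-NMN mice 1 to 3. Every β-NMN heart was below every vehicle heart. The log2 fold change was -1.11 (SE 0.27), with an unadjusted p of 0.00475 and an adjusted p of 0.435 in edgeR. With DESeq2 it was -1.102 with an adjusted p of 0.0240, so the call depended on the test. Over the other alternatives its adjusted p was up to 0.750.

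Cd80 had 1.49, 2.77 and 1.54 CPM in vehicle hearts and 0.63, 1.13 and 1.46 CPM in β-NMN hearts. These did not overlap either, though vehicle mouse 1 and β-NMN mouse 3 were close, and the log2 fold change was -0.83 (SE 0.40, edgeR adjusted p 0.447). Mreg lay the other way, with 17.2, 13.7 and 21.1 CPM in vehicle and 21.3, 23.5 and 22.1 CPM in β-NMN mice. The fitted difference was 0.36 on the log2 scale (SE 0.17, edgeR adjusted p 0.445), and the ranges did not overlap. Without vehicle mouse 2, the values were -0.48 for Cd80 and 0.21 for Mreg. Groups did not overlap in the lower direction at 11.5% and in the higher direction at 11.6% of all 16245 genes, 23.1% in all.

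Fscn1 was well expressed in hearts, at 29.7, 31.0 and 20.6 CPM in vehicle and 19.9, 31.3 and 23.4 CPM in β-NMN mice, with full overlap and a log2 fold change of -0.13 (95% interval -0.66 to 0.41). Cd40 had 2.09, 2.52 and 2.18 against 3.17, 2.66 and 2.39 CPM, a difference of 0.27 (95% interval -0.25 to 0.79) that was 0.16 without β-NMN mouse 1. Cd86 had 2.20, 1.86 and 1.98 against 2.83, 2.22 and 1.54 CPM, a difference of 0.12 (95% interval -0.55 to 0.78). Cd83 had 0.51, 0.77 and 0.73 against 1.01, 1.76 and 0.37 CPM, where β-NMN mouse 3 was lowest of all and the interval of the difference was wide (-0.67 to 1.96). The difference of 0.64 for Cd83 was 0.00642 without β-NMN mouse 2 and 1.06 without β-NMN mouse 3.

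Ccr7, Ccl17 and Ccl22 did not pass the count filter in hearts. Ccr7 had 13, 42 and 2 reads in vehicle and 5, 2 and 3 reads in β-NMN hearts. Ccl17 had 5, 86 and 13 against 2, 1 and 7 reads, and Ccl22 had 7, 52 and 4 against 2, 1 and 5 reads. In all 3 genes the high library was vehicle mouse 2, the one that stood apart. Of the 7 members tested in hearts, 0 passed, as did 0 of all genes (0.00%), while 1 member (Samsn1) and 1837 genes (11.3%) had an unadjusted p below 0.05.

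In lungs, all 10 members were measured and the ranges of the 2 groups overlapped for each of them, whereas groups did not overlap at 8.21% of all 17008 genes, 3.75% in the lower and 4.47% in the higher direction. Ccr7 had 6.17, 5.92 and 3.94 CPM in vehicle lungs and 2.92, 4.41 and 3.23 CPM in β-NMN lungs. The treated lungs lay towards the low end, and the log2 fold change was -0.60 (95% interval -1.44 to 0.25, edgeR adjusted p 0.969). Samsn1 had 10.1, 15.6 and 13.6 against 9.87, 7.85 and 10.6 CPM, a difference of -0.47 (95% interval -1.13 to 0.19). Mreg had 3.81, 4.05 and 2.78 against 3.11, 3.87 and 1.94 CPM, a difference of -0.25 (95% interval -1.20 to 0.71) that was -0.0088 without β-NMN mouse 3 and -0.48 without β-NMN mouse 2.

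Fscn1 had 21.8, 5.78 and 20.3 CPM in vehicle lungs and 11.6, 17.6 and 16.6 CPM in β-NMN lungs. Vehicle mouse 2 was far below the rest, and the difference of -0.07 (95% interval -1.22 to 1.07) was -0.46 without it. Ccl22 had 2.90, 17.2 and 2.28 against 2.62, 3.17 and 3.56 CPM. Its log2 fold change of -1.22 (95% interval -3.09 to 0.65) became 0.27 without vehicle mouse 2. Ccl17 had 2.698, 23.8 and 7.50 against 6.58, 3.83 and 16.4 CPM, and its difference of -0.32 (95% interval -2.32 to 1.68) became 0.83 without that mouse.

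Among the costimulatory genes in lungs, Cd80 had 1.75, 5.35 and 1.86 CPM in vehicle and 2.68, 2.17 and 2.42 CPM in β-NMN mice. The difference of -0.26 (95% interval -1.52 to 0.99) turned to 0.42 without vehicle mouse 2, which again held the highest value. Cd40 had 22.4, 17.5 and 18.6 against 17.97, 19.9 and 22.2 CPM, a difference of 0.04 (95% interval -0.48 to 0.55). Cd83 had 5.94, 3.90 and 6.09 against 5.00, 7.35 and 6.60 CPM, a difference of 0.24 (95% interval -0.54 to 1.02) that was 0.0753 without vehicle mouse 2 and 0.39 without β-NMN mouse 1. Cd86 had 5.06, 3.03 and 4.27 against 4.45, 3.75 and 4.84 CPM, a difference of 0.07 (95% interval -0.75 to 0.88). Without vehicle mouse 2, Cd40 was at -0.03 and Cd86 at -0.10.

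Of the 10 members in lungs, 0 passed in edgeR, as did 0 of all genes (0.00%), and 0 members and 301 genes (1.77%) had an unadjusted p below 0.05. DESeq2 called 0 members in lungs.

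**Figure D4:**
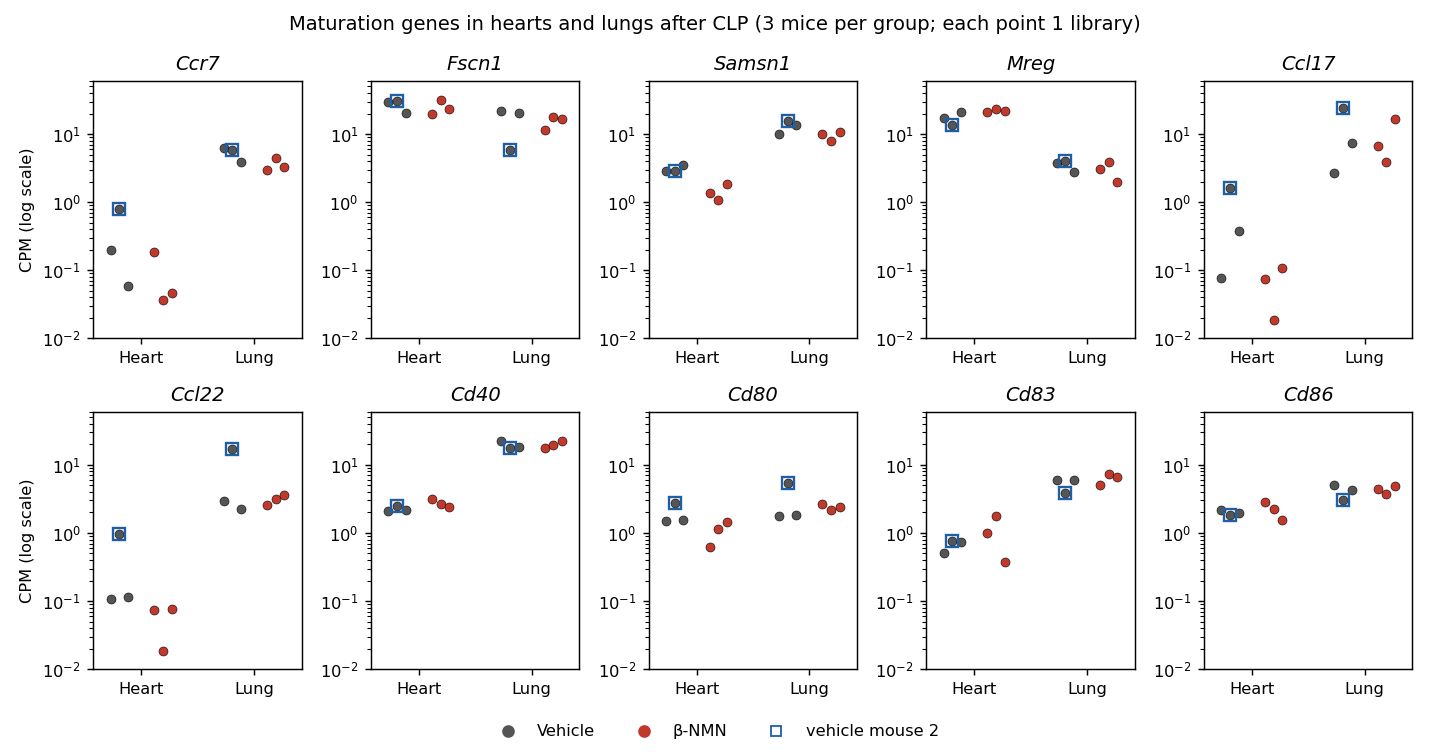
CPM (log axis) of the 10 maturation genes in hearts and lungs after CLP, each point 1 library of 3 vehicle (grey) and 3 β-NMN (red) mice, with blue squares around vehicle mouse 2. Samsn1 is separate between groups in hearts (2.84 to 3.55 against 1.07 to 1.83 CPM), and vehicle mouse 2 holds the highest Ccl22 and Ccl17 value in both organs.

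**Figure D5:**
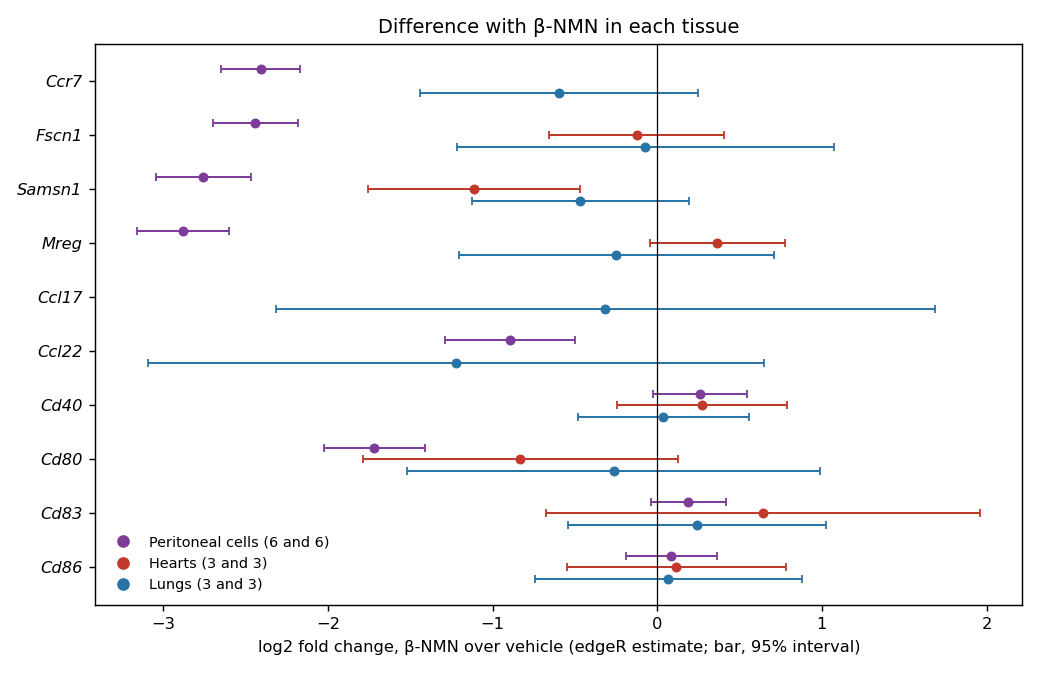
Log2 fold change (β-NMN over vehicle) of each maturation gene with its 95% interval from edgeR, in peritoneal cells (6 and 6 mice), hearts and lungs (3 and 3 mice each); genes that did not pass the count filter have no point. Peritoneal estimates are a description, since this contrast chose the genes, and run from -2.88 for Mreg to 0.26 for Cd40. Intervals in hearts and lungs include 0 for all but Samsn1 in hearts (-1.76 to -0.47).

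The response to β-NMN was also compared directly between the organs, as an interaction over the 12 CLP libraries. Of the 10 members, 0 passed (smallest edgeR adjusted p 0.960), as did 0 of all 18318 genes (0.00%). At an unadjusted p below 0.05 there were 797 genes (4.35%) and 0 members, and DESeq2 called 14 genes and 0 members. The estimates were imprecise and do not show that the organs respond alike. The effect in lungs minus that in hearts was 3.05 for Ccl17 (95% interval -0.27 to 6.37), 1.66 for Ccl22 (-1.32 to 4.63) and 1.57 for Ccr7 (-0.74 to 3.89), the genes with few reads in hearts. For Ccr7 it was 0.40 without vehicle mouse 2, 0.97 without β-NMN mouse 2 and 2.54 without β-NMN mouse 1. For Samsn1 it was 0.67 (95% interval -0.17 to 1.51), and for Mreg it was -0.60 (95% interval -1.42 to 0.23), or -0.38 without β-NMN mouse 3.

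The organs themselves differed in these genes. In vehicle mice, 8 of 10 members passed between lungs and hearts, 6 higher and 2 lower in lungs, where 51.0% of all genes passed, 27.6% higher and 23.4% lower. Ccr7 was higher in lungs by 3.22 on the log2 scale (SE 0.74, edgeR adjusted p 0.00384), Ccl22 by 3.42 (SE 0.94, adjusted p 0.0102) and Ccl17 by 3.28 (SE 1.03, adjusted p 0.0191). Cd40 was higher by 2.43 (SE 0.23, adjusted p 6.96e-06), Cd83 by 2.33 (SE 0.51, adjusted p 0.00272) and Samsn1 by 1.39 (SE 0.27, adjusted p 0.00150).

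Mreg and Fscn1 had the opposite pattern. Mreg was lower in lungs than in hearts, with a log2 difference of -2.98 (SE 0.28, edgeR adjusted p 7.33e-06), and Fscn1 with one of -1.40 (SE 0.43, adjusted p 0.0168). Cd80 (-0.13, 95% interval -1.17 to 0.90) and Cd86 (0.38, 95% interval -0.35 to 1.099) did not pass. Without vehicle mouse 3, Ccl17 no longer passed (3.16, adjusted p 0.0786). Without vehicle mouse 2, the values moved to 4.36 for Ccr7, 3.89 for Ccl17 and -1.02 for Fscn1.

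Per kilobase of exon, vehicle hearts were led by Fscn1 (median 9.87 CPM per kb) and Mreg (7.55), whose ranges overlapped, and every other member had a median below 1 CPM per kb. Vehicle lungs were led by Ccl17 (14.6), Fscn1 (6.74) and Cd40 (5.45) with overlapping ranges. 

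For the other program genes, 0 passed in either organ by edgeR's test, and DESeq2 called 4 in hearts, all lower, and 0 in lungs. In hearts, the smallest p of each list belonged to Itgb2, a leukocyte integrin (log2 fold change -0.54), Icam1, its ligand (-1.18, from 77.7 ± 24.3 to 34.2 ± 5.802 CPM, SD, n = 3 each), Tnfaip3, the NF-κB feedback inhibitor A20 (-1.42), Marcksl1 (-0.69) and Ccl19 (-2.74), each with an edgeR adjusted p of 0.435. Next in their lists were Gnai3 (-0.66), Tnfsf9 (-0.68), Birc3 (-0.88), Lad1 (-1.75) and Ccl21a (0.89). In lungs they were Marcksl1 (-0.69) and Tnfrsf9 (-1.59), Vtcn1 (-0.61) and Cd24a (-0.24), Birc3 (-0.51) and Traf1 (0.67), Marcks (-1.04) and Actn1 (-0.79), and Ccl19 (-1.70) and Ccl21a (0.98), each with an edgeR adjusted p of 0.969. Ccl19 and Ccl21a have near-identical copies in the mouse genome, so their counts are uncertain.

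In the organs, some marker sums differed between the groups and others overlapped, and the sums were not tested. Neutrophil markers summed to 23.0 to 41.0 CPM in vehicle hearts and 15.3 to 17.1 CPM in β-NMN hearts, and heart muscle markers to 30476 to 49687 and 52021 to 56905 CPM. The low end of the latter was vehicle mouse 2, and the other vehicle hearts had 49238 and 49687 CPM. Macrophage markers overlapped in hearts, at 194 to 352 CPM in vehicle and 248 to 449 CPM in β-NMN mice. The separate list of resident peritoneal macrophage markers summed to 677, 1195 and 315 CPM in vehicle and 295, 252 and 245 CPM in β-NMN hearts, of which Prg4 alone gave 143 to 864 and 109 to 158 CPM. T-cell markers summed to 1.56 to 2.12 and 2.16 to 2.46 CPM in hearts. Conventional dendritic cell markers summed to 66.6 to 71.2 and 70.6 to 83.9 CPM in hearts. In lungs, macrophage markers summed to 1343 to 4197 CPM in vehicle and 4925 to 5404 CPM in β-NMN mice. The low end was again vehicle mouse 2, and the other vehicle lungs had 3914 and 4197 CPM. Most of these sums was Lyz2 alone, at 1059 to 3920 CPM in vehicle and 4674 to 5177 CPM in β-NMN lungs. Heart muscle markers were found in lungs too, at 252, 415 and 259 CPM in vehicle and 150, 245 and 74.7 CPM in β-NMN mice. Dendritic cell markers in lungs summed to 235 to 264 and 235 to 297 CPM, and neutrophil markers to 1382 to 2537 and 1569 to 2395 CPM. Both overlapped. The part of these cells in the values of the maturation genes was not tested.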

How the data were processed

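Poly(A) RNA was sequenced from 12 peritoneal, 6 heart and 6 lung samples. The authors deposited, per experiment, a table of raw read counts per gene symbol. According to the methods and the submitters' processing notes, reads were aligned to mm10 with STAR (2.7.3a in the notes) and counted with featureCounts (2.0.0). Annotation, strand setting and low-count filter are not given in the sources used here. The methods call the reads single-end in one place and paired-end in another.

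The 10 members and all lists were chosen with earlier results of these data known. The 3 tissues were fitted separately in edgeR (version 4.0.16, R 4.3.3) filterByExpr, TMM and the quasi-likelihood F-test (legacy=TRUE), and with Benjamini-Hochberg adjustment over all genes tested. This gave 14985, 16245 and 17008 genes in peritoneal cells, hearts and lungs, of which 9, 7 and 10 were members. The 12 CLP libraries were fitted together for contrasts between organs. The log2 CPM used a prior count of 2. Standard errors are the absolute log2 fold change over the square root of F. The alternatives were DESeq2 1.42.0, its size factors, no filter, the newer quasi-likelihood fit, a replicate or mouse block, a term for totals above or below a depth boundary of 75 M counts (added after the totals were seen) and leaving out each library. The procedure was tested on simulated counts, where the lung fit missed every planted change.

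The text names all members, up to 3 called genes per list and direction with the smallest p in peritoneal cells (2 per list in the organs), the 5 genes most like Ccr7, and markers. Zbtb46, Flt3, Batf3, Clec9a and Ctla4 were named after their values were seen. GENCODE M21 held 54106 of the 54658 symbols, 106 ambiguously. The labels give number 3 to 2 β-NMN hearts, of which the one with lung number 2 served as replicate 2. Thioglycollate is named in the organs' source labels, against CLP in their titles. Replicates were separate mice, and no 2 libraries of the same group agreed within counting noise. The heart and lung of a mouse carry the same number, and their deviations from group means correlated at 0.064 to 0.171.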

Additional observations from a re-analysis of the deposited data

Results flagged for a closer look

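In each of the 20 groups of 6 peritoneal libraries (10 members, 2 treatments), the highest and lowest mice were compared with their nearest neighbour, a comparison by which chance marks about 1 group in 20. It marked 2. Fscn1 was at 108 CPM in vehicle mouse 4, where the next highest vehicle mouse had 82.2 CPM. Ccl17 was at 0.176 CPM in β-NMN mouse 1, a value of 16 reads, where the next highest β-NMN mouse had 0.0465 CPM. Without vehicle mouse 4, the log2 fold change of Fscn1 in peritoneal cells was -2.30, against -2.44 with it.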

How the results depend on the processing

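The lung of vehicle mouse 2 had the fewest counts, and Ccr7, Ccl17 and Ccl22 had too few reads in hearts to be fitted. On simulated counts the lung fit missed every planted change, so no stability can be read from the lungs having no calls. The heart fit found most of the larger planted changes and missed nearly all of the smaller ones. In peritoneal cells 6775 to 8149 genes and 55 to 61 other program genes were called over the alternatives. The number of genes called in hearts was 3 without the low-count filter, 283 with DESeq2 and 0 to 5 when each library was left out (5 without vehicle mouse 2), and 1 member was called with DESeq2. In lungs DESeq2 called 9 genes. Between vehicle organs, 7 or 8 members were called. The cause of these changes was not tested.

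Among differences that did not pass, Mreg in lungs was between -0.48 and -0.0088 without 1 library, and others changed sign in 15 cases. In hearts without 1 library, Fscn1 was between -0.33 and 0.0162, Cd86 between -0.10 and 0.33, Cd40 between 0.16 and 0.36 and Cd83 between 0.00642 and 1.06. In lungs without 1 library, Fscn1 was between -0.46 and 0.22, Ccl17 between -1.09 and 0.83, Ccl22 between -1.63 and 0.27, Cd40 between -0.0365 and 0.17, Cd80 between -0.52 and 0.42 and Cd86 between -0.10 and 0.25. With the replicate number as a block, Fscn1 was at 0.0900 and Ccl17 at 0.0773 in lungs, 7010 genes and 59 program genes were called in peritoneal cells, and 0 in hearts and lungs. Deviations of same-numbered mice correlated at -0.17 to 0.13 in peritoneal cells, 0.07 to 0.24 in hearts and -0.52 to 0.30 in lungs, so the numbers were not taken as pairs across treatments. The block for the mouse over both organs left 8 members called between organs and 0 in the interaction.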
